A study of Mus musculus with 6 samples.

Results

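The comparison described here set 2 libraries of nipple-proximal Gpr125+ cells against 2 libraries of Gpr125-negative cells, 4 of the 6 libraries in the series. They were chosen by their titles, and the 2 libraries of Gpr125+ cells from the terminal end bud (TEB) region did not enter it. All 4 came from mammary glands of Adgra3-lz/+ mice at 6 weeks of age, in puberty, with glands of several animals pooled for each library. All animals, those that gave the Gpr125-negative cells included, carried 1 Adgra3 allele in which β-galactosidase is fused to Gpr125, the adhesion receptor that Adgra3 encodes. Cells were sorted on high surface CD49f (integrin α6, a basal antigen) and on cleavage of the fluorogenic β-galactosidase substrate FDG, so "Gpr125+" means reporter activity, not Adgra3 transcript. The nipple-proximal libraries are labelled by region, whereas the Gpr125-negative libraries carry no region label, so that reporter activity and position along the duct cannot be told apart. Nothing in the labels says that the libraries of a group were separate sorts, and p-values therefore measure only the spread between these libraries.

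The pubertal mouse mammary gland is a branching epithelial tree that grows from the nipple into the fat pad, with TEBs at its growing tips and maturing ducts behind them. Its ducts have an inner luminal layer and an outer basal layer. The basal layer is made mostly of myoepithelial cells, which stain for keratin 5 and keratin 14, lie on the basement membrane and contract through smooth-muscle actin and myosin. Progenitors with long-term growth potential are also found in the basal layer.

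Depth was 37296640 and 33300561 counts in the Gpr125-negative pair and 20134890 and 25184436 in the nipple-proximal pair. The tables listed 55291 symbols, of which 15812 passed the expression filter and were tested. With edgeR's quasi-likelihood test no gene met both a Benjamini-Hochberg adjusted p under 0.1 and a 2-fold difference, which is 0% of the genes tested in either direction. The smallest adjusted p was 1. Before adjustment, 628 genes (3.97%) had a p under 0.05, 453 of them higher and 175 lower in nipple-proximal Gpr125+ cells. DESeq2 on the same 4 libraries called 168 genes higher (1.06% of its 15829) and 149 lower (0.941%). Of the DESeq2 calls, 125 of the higher genes had at most 3 counts in both Gpr125-negative libraries and 68 of the lower genes at most 3 counts in both nipple-proximal libraries. With 2 libraries against 2, an exact two-sided permutation test cannot give a p below 0.333.

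The replicates differed widely. The Gpr125-negative libraries correlated with each other at a Pearson r of 0.700 across genes, below every correlation between the groups (0.785 to 0.861), while the nipple-proximal libraries correlated at 0.931. Genes are not independent replicates, and these coefficients describe the libraries. In the Gpr125-negative pair 67.4% of the tested genes were at least 2-fold apart, against 26.6% in the nipple-proximal pair. Leaving out Gpr125-negative replicate 1 moved edgeR's calls from 0 to 3023 higher and 1709 lower, and leaving out Gpr125-negative replicate 2 to 994 and 597. Without nipple-proximal replicate 1 there were 0 and 0 calls, and without replicate 2 there were 2 and 0. In each of these fits the lone library was assumed to vary like the other pair. The mitochondrially encoded share of counts was 0.301% and 2.83% in Gpr125-negative replicates 1 and 2 and 1.35% and 2.43% in nipple-proximal replicates 1 and 2.

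Because no gene passed the main test, genes are described by their values in each library. A gene is called separated where both nipple-proximal libraries lay at least 2-fold above, or at least 2-fold below, both Gpr125-negative libraries in CPM (the count scaled to the library's size after edgeR's TMM factors). By this description 956 genes (6.05%) were separated higher and 535 (3.38%) separated lower. The groups did not overlap at all, whatever the gap, for 2836 genes higher (17.9%) and 2032 lower (12.9%). The median log2 fold change of all tested genes was -0.09, and 45.6% lay above 0. Family counts below are to be read against these shares.

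**Figure D1:**
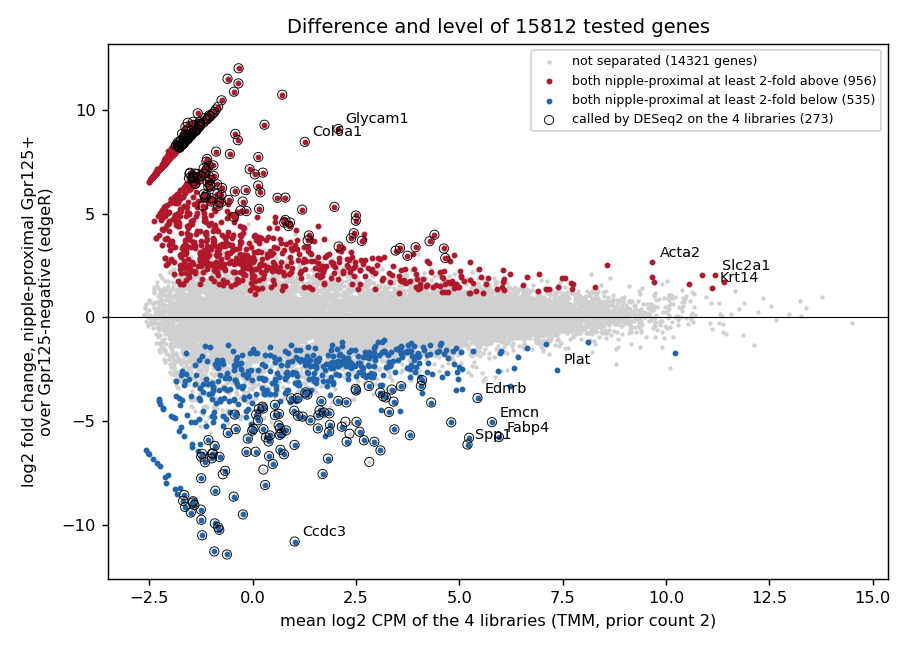
Each point is 1 of 15812 tested genes, with the mean log2 CPM of the 4 libraries on the x axis and the log2 fold change of nipple-proximal Gpr125+ over Gpr125-negative cells on the y axis. The 956 genes separated higher are red, the 535 separated lower are blue, and rings mark the 273 of 317 DESeq2 calls that are among the genes tested here.

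The sorted antigens were examined first. Adgra3 on chromosome 5 (chr5:49959956-50059006, minus strand, GRCm38) was represented by 1658 and 550 counts where the label was Gpr125-negative and by 391 and 262 where it was nipple-proximal Gpr125+. That is 35.6 and 19.3 against 18.6 and 11.6 CPM, with a log2 fold change of -0.86 ± 0.72 (SE), so the transcript level went against the label, within the spread of the replicates. Itga6, the gene of CD49f, was at 62.7 and 90.1 CPM in Gpr125-negative and 112 and 95.9 CPM in nipple-proximal libraries, high in all 4. Ptprc, which encodes the leukocyte antigen CD45, stayed at 1.98 and 2.77 and 2.66 and 4.04 CPM. Pecam1, which encodes CD31, an endothelial antigen that the gate was meant to leave out, was at 43.4 and 58.2 CPM in the Gpr125-negative and 26.1 and 2.26 CPM in the nipple-proximal libraries.

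Among genes with at least 20 CPM in both libraries of the higher group, the 15 separated genes with the smallest edgeR p in each direction were followed, and their values in every library are drawn in the plot of leading genes. At the head of the higher genes stood Col6a1, which encodes a chain of the microfibrillar collagen VI (chr10:76708792-76726168, minus strand). Gpr125-negative replicates gave 3 and 4 counts of it and nipple-proximal replicates 1023 and 555. The log2 fold change of Col6a1 was 8.46 ± 1.09 (SE). DESeq2 gave it an adjusted p of 4.5e-10 and edgeR one of 1. Glycam1, a mucin-like glycoprotein of milk and lymph node vessels (chr15:103562759-103565081, minus strand), had 13 and 2 counts against 3437 and 901. Both genes were close to absent from 1 group and clearly present in both libraries of the other.

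Others of these genes were present in all 4 libraries. Tigd2, which encodes a protein derived from a transposable element, was at 10.6 and 5.4 CPM in Gpr125-negative and 78 and 81.5 CPM in nipple-proximal libraries. Pck2, which encodes the mitochondrial enzyme that makes phosphoenolpyruvate, was at 10.1 and 8.73 and 58.3 and 77.8 CPM. Plagl1, an imprinted zinc finger gene, was at 4.47 and 5.29 and 33.4 and 68.3 CPM. On the log2 scale the replicates of each of these 3 genes lay nearer to each other than to the other group, which the choice of genes favours. Igfbp2, which encodes a secreted binding protein of insulin-like growth factors, was at 17 and 14.9 and 139.6 and 59.7 CPM. Col9a2, which encodes a collagen IX chain, was at 26.3 and 14.1 and 101 and 104 CPM. Espn, which encodes the actin-bundling protein espin, was at 2.21 and 10.2 and 66.4 and 91.2 CPM. The rest of the higher set were Zfp758, Arhgef39, Gpr35, Ndufa4l2 and the contractile genes Myl9, Lmod1 and Actg2 described below. DESeq2 called 11 of the 15 and edgeR none, and the genes were picked from the same values.

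The gene with the smallest p in the other direction was Ccdc3 (chr2:5137776-5230878, plus strand), which encodes a secreted coiled-coil protein. Gpr125-negative replicates gave 1660 and 1762 counts of it and nipple-proximal replicates 0 and 1, a pooled ratio of 1988 with a 95% counting interval of 356.5 to 78540. This interval covers counting error only. Ednrb, the endothelin B receptor (chr14:103814625-103844402, minus strand), was at 143 and 194 CPM against 13.1 and 9.54 CPM, with a log2 fold change of -3.89 ± 0.63 (SE) and a DESeq2 adjusted p of 0.0031. Ece1, which encodes the enzyme that cuts big endothelin to its active form, was at 65.1 and 61.5 and 13.9 and 12.6 CPM. For all 3 genes the libraries of a group lay nearer to each other than to the other group, which the choice of genes favours.

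Emcn, which encodes the endothelial sialomucin endomucin, was at 257 and 465 CPM in Gpr125-negative and 17.3 and 4.39 CPM in nipple-proximal libraries. Alcam, an adhesion molecule of the immunoglobulin family, was at 73.8 and 72 and 14.2 and 13.3 CPM. Plat, the tissue plasminogen activator, was at 411 and 399 and 94.1 and 46.1 CPM. Alcam differed little within either group, while the nipple-proximal libraries lay about 2-fold apart for Plat. Spp1, which encodes the secreted phosphoprotein osteopontin, was at 797 and 63.1 and 4.65 and 7.55 CPM, so that its Gpr125-negative libraries were themselves far apart. Casp4, an inflammatory caspase, was at 30.8 and 45.5 and 6.93 and 5.42 CPM. Rgs16, a brake on G protein signalling, was at 28.5 and 75.4 and 3.04 and 1.33 CPM. The remaining genes were Nsg1, Dmtn, Eda2r, Stard9, Fam180a and Gng11. DESeq2 called 10 of the 15 lower genes and edgeR none, and these genes too were picked from the same values. Over both directions 8 of the 30 genes overlapped another annotated gene, so that counting without strand could not assign all of their reads.

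**Figure D2:**
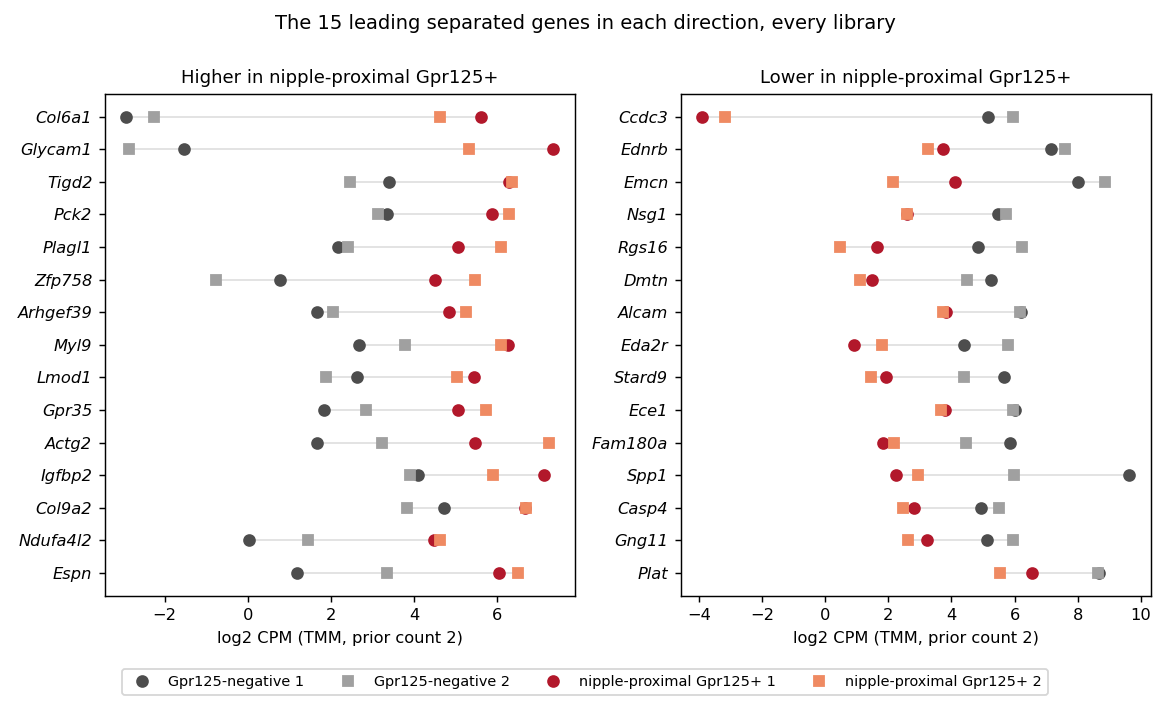
Level of the 15 leading separated genes in each direction, as log2 CPM on the x axis, with 1 point per library. Red and orange points are the nipple-proximal Gpr125+ replicates and grey points the Gpr125-negative replicates, and no red or orange point lies among the grey ones because the genes were chosen for this.

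Genes of the contractile apparatus were higher in nipple-proximal Gpr125+ cells as a group. Of 16 listed genes 14 were tested, 13 had a log2 fold change above 0 and their median was 1.69, against -0.09 over all tested genes. Both nipple-proximal libraries exceeded both Gpr125-negative libraries for 10 of the 14 (17.9% of all tested genes did so). Of the 14, 5 were separated higher (35.7%, against 6.05% of all tested genes) and 1 lower, and edgeR called none after adjustment. Acta2, smooth-muscle α-actin, was at 189.7 and 529 CPM in Gpr125-negative and 1358 and 3186 CPM in nipple-proximal libraries, with a log2 fold change of 2.66 ± 0.91 (SE). Actg2, enteric smooth-muscle γ-actin (chr6:83512905-83536265, minus strand), was at 3.1 and 9.26 and 44.2 and 151 CPM and was called by DESeq2 (adjusted p = 0.042). The replicates of both actins were more than 2-fold apart within each group, as were the nearest libraries of different groups.

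Regulatory proteins of the same apparatus followed. Myl9, the regulatory myosin light chain, was at 6.36 and 13.7 and 76.7 and 67.7 CPM. Mylk, the kinase that phosphorylates that light chain, was at 15 and 27.5 and 56.3 and 90.2 CPM. Lmod1, an actin filament nucleator of smooth muscle, was at 6.08 and 3.61 and 43.5 and 32.5 CPM, with a DESeq2 adjusted p of 0.099. These 3 genes were separated. Myh11, smooth-muscle myosin heavy chain, was at 62.6 and 148 and 223 and 413 CPM, and Oxtr, the oxytocin receptor that triggers milk ejection, was at 32.1 and 21.6 and 72.2 and 48.5 CPM. Their groups did not overlap but lay less than 2-fold apart at the nearest libraries. Cnn1 (calponin) was at 14.3 and 187 and 178 and 522 CPM and Tpm1 (tropomyosin) at 197 and 908 and 589.6 and 852 CPM, and both overlapped, with Gpr125-negative replicate 2 high. Tpm1 turned to -0.34 without Gpr125-negative replicate 1, and Cald1 (caldesmon), at 95.3 and 600.2 and 260.2 and 1181 CPM, to -0.40 without nipple-proximal replicate 2. Des, the intermediate filament desmin, went the other way at low level, with 2.75 and 3.61 and 0.949 and 0.977 CPM. The summed level of the list was 871 and 2667 CPM and 3430.0 and 7127 CPM. Leaving out each library, the median ranged from 1.26 without nipple-proximal replicate 2 to 2.54 without Gpr125-negative replicate 2.

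The transcription factor SRF binds the CArG box in many smooth-muscle promoters, and the RefSeq promoters (GRCm38.p6) of the contractile list were searched for it in the 250 bases before the start, where the motif is its own reverse complement. Of the 11 genes with a promoter in the table, 2 held a match, Myl9 and Srf itself, against 161 of 10843 tested genes (1.48%) and 1.62% of all promoters. Actg2, Tagln, Myh11, Myocd and Mkl1 had no promoter in the table and were not searched. Only the exact form was counted, CC, then A or T letters only, then GG, 10 letters in all. Acta2 held near matches in its window but no exact one. A match is a description of the letters and not of binding. The list holds smooth-muscle genes and Srf itself, so the share with a match says nothing independent about these cells. The upstream sequence of Myl9 (chr2:156775214-156775419, plus strand) is shown because Myl9 was separated and holds the motif. The CArG box is in capitals, 161 bases before the RefSeq start. The 206 bases shown stop at the GENCODE gene start, so they end before the RefSeq start.
Myl9: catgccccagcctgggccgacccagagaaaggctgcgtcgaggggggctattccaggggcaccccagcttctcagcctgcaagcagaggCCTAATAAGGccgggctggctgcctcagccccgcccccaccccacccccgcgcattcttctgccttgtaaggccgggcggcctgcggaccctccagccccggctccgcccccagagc

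Genes of glycolysis and of the response to low oxygen were mostly higher in nipple-proximal Gpr125+ cells. In low oxygen the transcription factor HIF-1 accumulates and raises glucose transporters, glycolytic enzymes and the prolyl hydroxylases that mark HIF-1 for degradation. All 22 listed genes were tested, all 22 had a log2 fold change above 0, and the median was 1.24, with a range of 0.41 to 2.54. For 18 of the 22 both nipple-proximal libraries lay above both Gpr125-negative libraries (17.9% of all tested genes did so). The separated genes were 5 (22.7%) and none was separated lower. With edgeR 4 had a p under 0.05 before adjustment and none passed it, and DESeq2 called none. The summed level was 15990.0 and 18820.0 CPM in the Gpr125-negative and 38050.0 and 42160.0 CPM in the nipple-proximal libraries.

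Entry of glucose and its first steps are covered by Slc2a1, Hk2 and Gpi1. Slc2a1, the glucose transporter GLUT1, was at 797 and 1585 CPM in Gpr125-negative and 4142 and 5529 CPM in nipple-proximal libraries, with a log2 fold change of 2.02 ± 0.74 (SE). Hk2, the inducible hexokinase, was at 18.8 and 60.9 and 139 and 197 CPM. Gpi1, glucose-6-phosphate isomerase, was at 728 and 1033 and 2167 and 3124 CPM. All 3 were separated, whereas Hk1, the housekeeping hexokinase, was at 304 and 109 and 364 and 335 CPM, with groups that lay close to each other. Lower in the pathway the differences were smaller. Ldha, lactate dehydrogenase A, was at 1431 and 2963 and 5491 and 4925 CPM, and Pkm, pyruvate kinase, at 4098 and 1991 and 5116 and 4748 CPM. Gapdh, often used as a reference gene, was at 1170.5 and 921 and 2229 and 2655 CPM, a log2 fold change of 1.22 ± 0.64 (SE).

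Oxygen-responsive genes outside glycolysis were higher too. Egln3, a prolyl hydroxylase of the HIF pathway, was at 72.7 and 281 CPM against 1268 and 794 CPM, a log2 fold change of 2.54 ± 0.92 (SE). Ndrg1, a stress-responsive gene, was at 376 and 549.6 and 1394 and 1646 CPM. Egln3 and Ndrg1 were separated. Car9, carbonic anhydrase IX, was at 4.17 and 46.5 and 79.1 and 154 CPM, and Vegfa, the vascular growth factor, at 282 and 597 and 936 and 1149 CPM. Bnip3, a mitochondrial autophagy receptor, was at 19.4 and 659 and 459 and 447 CPM and overlapped between groups. Gpr125-negative replicate 1 was the lowest library for Egln3, Ndrg1, Car9, Vegfa and Bnip3. Ndufa4l2, a HIF target that lowers mitochondrial activity and also a pericyte marker, was at 0.946 and 2.66 and 22.1 and 24.5 CPM (DESeq2 adjusted p = 0.042). Leaving out any single library kept the median of the list between 1.12 and 2.00, while Bnip3 and P4ha1 turned to -0.55 and -0.37 without Gpr125-negative replicate 1.

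HIF-1 binds DNA at a short core, ACGTG, and the 250 bases before each RefSeq start were searched for it on both strands. The core was held by 2686 of 10843 tested genes (24.8%) and 18.5% of all promoters. Ndrg1 had no promoter in the table and was not searched. Of the 21 other listed genes 14 held the core before at least 1 start (66.7%). The list was assembled from known targets of HIF, so this share says nothing independent about these cells. The upstream sequences of Egln3 (chr12:54203875-54204124, minus strand) and Hk2 (chr6:82774455-82774704, minus strand) are shown because both genes were separated and hold the core. It is in capitals, read on either strand, and begins 229 bases before the Egln3 start and 226 and 52 bases before the Hk2 start.
Egln3: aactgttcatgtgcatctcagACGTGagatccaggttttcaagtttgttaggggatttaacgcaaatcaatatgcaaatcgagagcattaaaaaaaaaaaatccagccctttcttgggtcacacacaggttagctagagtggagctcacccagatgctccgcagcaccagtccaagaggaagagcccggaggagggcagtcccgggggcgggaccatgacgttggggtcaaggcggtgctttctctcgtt
Hk2: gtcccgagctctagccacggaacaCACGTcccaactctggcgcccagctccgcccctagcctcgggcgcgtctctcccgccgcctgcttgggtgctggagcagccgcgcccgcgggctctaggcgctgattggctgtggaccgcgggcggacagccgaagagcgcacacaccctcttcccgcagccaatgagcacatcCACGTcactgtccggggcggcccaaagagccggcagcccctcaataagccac

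**Figure D3:**
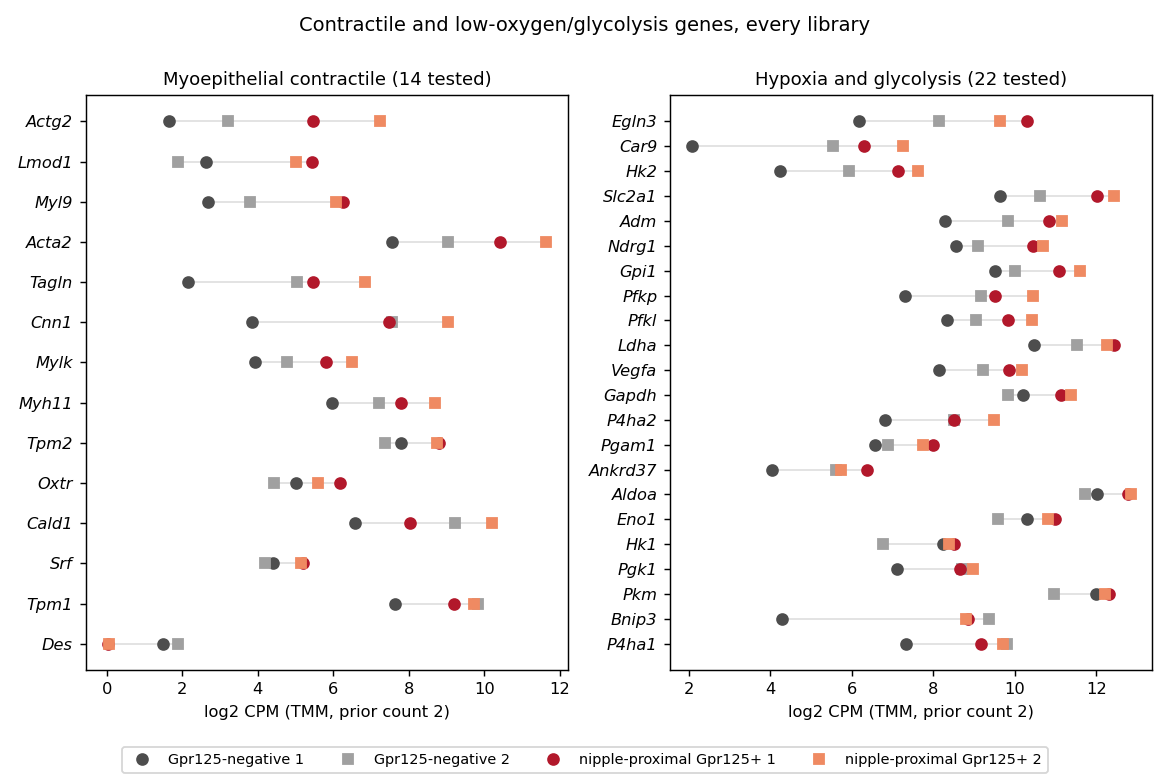
Level of the 14 tested contractile genes and the 22 tested genes of glycolysis and the low-oxygen response, as log2 CPM on the x axis, 1 point per library, ordered from the largest log2 fold change down. Red and orange points (nipple-proximal Gpr125+) lie to the right of the grey points (Gpr125-negative) for 10 of 14 and 18 of 22 genes, and the dark grey Gpr125-negative replicate 1 is often the leftmost.

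Basal markers were present in all 4 libraries. Krt14 was at 1488 and 1236 CPM in Gpr125-negative and 3290.0 and 4015 CPM in nipple-proximal libraries, and Krt17, a keratin of basal and stressed epithelium, at 677 and 1243 and 2881 and 4971 CPM, both separated higher. Krt5, the partner of keratin 14, was at 838 and 223 and 891 and 513 CPM and overlapped. Procr, the protein C receptor that marks a basal progenitor subset, was separated lower, at 2468 and 1999.8 CPM against 925 and 447 CPM. The study cautions that such markers are also expressed by other mammary cells, which limits their use. Which cells gave the Procr level was not tested. Trp63, the master regulator of the basal layer, was at 58 and 8.69 and 17 and 8.7 CPM, with Gpr125-negative replicate 1 alone high. Without that library Trp63 lay at a log2 fold change of 0.56 in place of -1.37, and without Gpr125-negative replicate 2 Krt5 lay at -0.21 in place of 0.41. Lgr5, a Wnt-associated progenitor marker, was at 2.71 and 0 and 5.22 and 6.84 CPM. Of the 14 basal markers 2 were separated higher and 1 lower, and their median log2 fold change was 0.34, which became -0.18 without Gpr125-negative replicate 2 and 1.52 without replicate 1. The keratins as a family had 15 of 17 tested members above 0 and a median of 0.80, or 1.65 without Gpr125-negative replicate 1.

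Cadherin, desmosome, basement membrane and collagen genes were mostly higher, and tight junction genes were not. Of 18 tested cadherin and desmosome genes 17 lay above 0, with a median of 0.90 (1.44 without Gpr125-negative replicate 1). The basement membrane and collagen list holds laminins, nidogens, perlecan and collagens. Of its 36 tested genes 25 lay above 0, with a median of 0.88 (0.42 without nipple-proximal replicate 1). Of 17 tested tight junction genes 7 lay above 0, with a median of -0.53 (0.06 without Gpr125-negative replicate 1), and 2 were separated lower, Cldn5 and Cgn, which encodes cingulin. Dsp, the desmosomal plaque protein desmoplakin, was at 101 and 136 CPM in Gpr125-negative and 380.3 and 364 CPM in nipple-proximal libraries. Lama3, a chain of the epithelial laminin-332, was at 89.7 and 95.2 and 349 and 334 CPM, with a log2 fold change of 1.88 ± 0.57 (SE). Col4a2, a chain of basement membrane collagen IV, was at 136 and 129 and 401 and 287 CPM. Each of these 3 genes was separated and had close replicates. Col6a2, which encodes the partner chain of Col6a1, was at 2.26 and 2.42 and 22.1 and 7.5 CPM, so Col6a2 transcript was present in the Gpr125-negative libraries that had 3 and 4 counts of Col6a1. Lama2, a laminin chain of muscle and nerve, went the other way with 79 and 582 counts against 1 and 0, a pooled ratio of 384 (95% counting interval 68.7 to 15190). Of 21 tested integrin genes 12 lay above 0, with a median of 0.24 (-0.16 without nipple-proximal replicate 1), and Itga1, the collagen-binding α1 chain, and Itgb6 were separated higher.

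Stress genes followed the replicate as much as the group. For 4 of 18 genes of the unfolded protein response both nipple-proximal libraries exceeded both Gpr125-negative libraries, against 17.9% of all tested genes. Of the 18, 17 lay above 0, with a median of 0.94. That median was 0.10 without nipple-proximal replicate 2, 0.21 without Gpr125-negative replicate 1, 1.43 without nipple-proximal replicate 1 and 2.54 without Gpr125-negative replicate 2. Hspa5, the chief chaperone of the endoplasmic reticulum, was at 877 and 29278 CPM in Gpr125-negative and 5898 and 28244 CPM in nipple-proximal libraries, so replicate 1 of each group was far below replicate 2. Its log2 fold change was 0.18, -0.79 without Gpr125-negative replicate 1 and -1.34 without nipple-proximal replicate 2. Sesn2, a stress-induced regulator of mTORC1, was the separated member, at 89.3 and 92.8 and 187 and 277 CPM. The 14 cytosolic heat shock genes had a median of -0.69, which turned to 1.58 without Gpr125-negative replicate 2, and all 14 were higher in Gpr125-negative replicate 2 than in replicate 1. Hspa1b, an inducible HSP70 gene with a near-identical neighbour Hspa1a, was at 1259 and 20529 and 2756 and 5793 CPM, and its log2 fold change of -1.35 turned to 1.81 without Gpr125-negative replicate 2.

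Among lists of other cell types with at least 7 tested members, the endothelial list had the lowest median. The leukocyte, fibroblast and pericyte medians were 0.42, -0.56 and -0.31. The endothelial list, 16 genes, had 14 below 0, a median of -2.62, and 6 separated lower (37.5%, against 3.38% of all tested genes). The other separated member, Sox17, was higher. Its summed level was 1411 and 889.8 CPM in the Gpr125-negative and 252 and 30.2 CPM in the nipple-proximal libraries. None of the 16 was at 0 in a whole group. Cdh5, VE-cadherin, was at 138 and 61.4 CPM against 25.2 and 1.51 CPM, Tek, the angiopoietin receptor TIE2, at 78 and 29 and 0.949 and 0 CPM, and Cldn5, an endothelial claudin, at 220.4 and 48.3 and 11.6 and 0.0888 CPM. These genes were lowest in nipple-proximal replicate 2, and DESeq2 called Emcn (adjusted p = 0.0010) and Tek (0.0031) but neither Cdh5 nor Cldn5. Without nipple-proximal replicate 1 the median was -4.46, without replicate 2 it was -1.76, and without Gpr125-negative replicate 1 it was -1.65. Sox17, with 0 and 1 counts against 93 and 9, was separated higher and called higher by DESeq2. Flt1, a VEGF receptor that overlapped between groups at 3.91 and 2.59 and 11.7 and 2.44 CPM, also lay above 0. The sort gate was meant to leave out CD31-bearing cells, yet endothelial transcripts were measured in all 4 libraries, and fewer cells of a type cannot be told apart from less RNA per cell in bulk libraries.

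Markers of lymphatic, Schwann, pigment and fat cells were mixed, and several defining genes were lower. Of 7 tested lymphatic markers 5 lay below 0 and 3 were separated lower and 1 higher, and of 7 tested Schwann and neural crest markers 2 were separated lower and none higher. Prox1, the regulator of lymphatic identity, was at 11.6 and 24.5 CPM in Gpr125-negative and 1.47 and 0.133 CPM in nipple-proximal libraries (DESeq2 adjusted p = 0.044). Ccl21a, a chemokine of lymphatic vessels, was higher, at 0.967 and 2.1 and 41.8 and 9.32 CPM. DESeq2 called 1 lymphatic marker lower and 1 higher. Tyrp1, a melanin synthesis enzyme, was at 14.3 and 26.7 and 0.57 and 0 CPM, and 3 of 6 melanocyte markers were at 0 in both nipple-proximal libraries and 2 of 6 in both Gpr125-negative libraries. Fabp4, a fatty acid carrier of adipocytes and capillary endothelium, was at 671 and 653 and 22.7 and 1.42 CPM, a log2 fold change of -5.78 ± 1.56 (SE) (DESeq2 adjusted p = 0.0024). Fabp4 made up nearly all of the adipocyte sum. Pparg, the transcription factor of fat cell differentiation and the other adipocyte marker tested, was separated higher at 0 and 1 counts against 25 and 19. The adipocyte-defining Adipoq had 1 count in all 4 libraries together. How far these cells account for other differences was not tested.

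Luminal markers were divided. Ltf, the milk protein lactoferrin, was at 222 and 16.4 CPM in Gpr125-negative and 0.664 and 4.93 CPM in nipple-proximal libraries, and Aldh1a3, a retinal dehydrogenase of luminal progenitors, at 102 and 1.86 and 1.23 and 1.91 CPM. Both were high in Gpr125-negative replicate 1 above all, and DESeq2 called both lower. Wfdc18, a secreted protease inhibitor of the WAP family, had the same shape, at 127 and 2.73 and 1.04 and 1.6 CPM. Krt8, the pan-luminal keratin, was at 1005 and 428 and 1188 and 835 CPM and overlapped. Glycam1, described above and a member of the same list as Ltf and Aldh1a3, was separated higher and called higher by DESeq2. Over 11 tested secretory and progenitor markers 5 lay above 0, 1 was separated higher and 3 lower, and the median was -1.42, which became -0.25 without Gpr125-negative replicate 1, -3.28 without nipple-proximal replicate 1, -2.40 without Gpr125-negative replicate 2 and 0.36 at 10 CPM or more in 2 libraries. Of 13 tested hormone-sensing markers 8 lay above 0, with a median of 0.37 (-0.18 without nipple-proximal replicate 1 and 1.74 without Gpr125-negative replicate 1), 1 separated higher, the progesterone receptor Pgr, and 1 lower, Wnt4. The summed level of the secretory and progenitor list did not separate the groups, with 1017 and 599.9 and 1002 and 1027 CPM. Summed leukocyte markers were at 96.5 and 139.9 and 241 and 146 CPM, fibroblast markers at 96.9 and 251 and 112 and 61.4 CPM, pericyte markers at 11.7 and 62.3 and 37.1 and 61.2 CPM, and erythroid markers at 0.365 and 1.37 and 0.0475 and 0.133 CPM. The leukocyte and erythroid sums did not overlap between the groups, the former higher and the latter lower in nipple-proximal libraries, and the fibroblast and pericyte sums did.

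**Figure D4:**
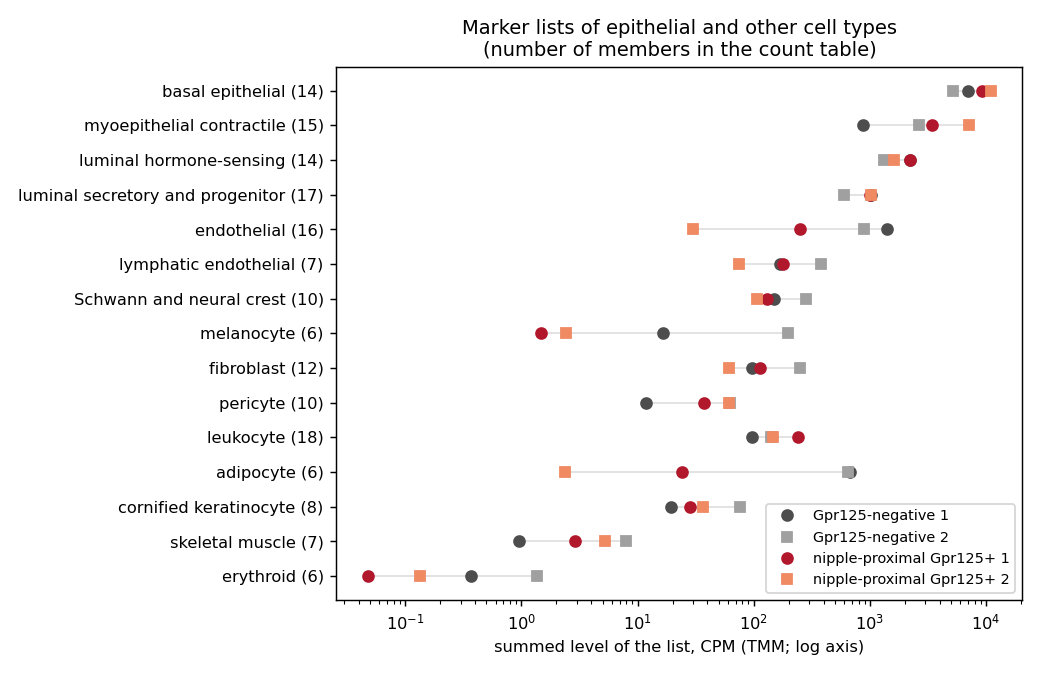
Summed level of 15 marker lists in each library, in CPM on a logarithmic x axis, with the number of members in the count table in brackets. The endothelial and melanocyte sums, and the adipocyte sum, which is nearly all Fabp4, of both Gpr125-negative libraries (grey) lie above both nipple-proximal Gpr125+ libraries (red and orange), and the myoepithelial contractile sums lie below them.

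Guidance genes, which encode secreted or membrane cues that repel or attract growing cells and axons, were split by class. Of the 7 class 3 semaphorins, secreted repellents that act through neuropilins and plexins, 6 lay below 0, with a median of -3.45. Sema3a was at 13.6 and 91.8 CPM in Gpr125-negative and 1.42 and 0.222 CPM in nipple-proximal libraries (DESeq2 adjusted p = 0.0021). Sema3d was at 11.1 and 123 and 0.807 and 1.38 CPM and Sema3b at 13.3 and 25.4 and 2.42 and 1.11 CPM, and both were called lower by DESeq2. Sema3g was separated lower at 70 and 91 counts against 0 and 3. Sema3e went the other way, with 0 and 0 counts against 69 and 124, at least 51.8-fold higher when each Gpr125-negative library is set at 3 counts. In all, 4 of the class were separated lower and 1 higher, and DESeq2 called 3 lower and 1, Sema3e, higher.

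Receptors and other cues had separated members in both directions. Nrp2, the receptor of Sema3 ligands and lymphatic growth factors, was at 38.4 and 37 CPM against 16.1 and 6.08 CPM, and Ntn4, a netrin of basement membranes, at 8.17 and 15.6 and 3.32 and 1.73 CPM, both separated lower. Robo1, a receptor of Slit ligands, was at 3.53 and 0.701 and 10.6 and 8.04 CPM, and Ephb1, a receptor of B-type ephrins, at 1.05 and 0 and 3.75 and 17.4 CPM, both separated higher. Unc5d, a netrin receptor, was separated higher at 0 and 0 against 14 and 36 counts. Sema5a, a transmembrane semaphorin, was at 1.76 and 0.14 and 10.9 and 5.19 CPM. Of 8 ephrin ligands 5 lay above 0 and none was separated. Over all 56 tested guidance genes 27 lay above 0, 5 were separated higher and 6 lower, and the median was -0.06, close to that of all genes.

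Ligands of the TGF-β and BMP pathway were mostly lower and their receptors mostly higher. Of 12 tested ligands 1 lay above 0, with a median of -1.44 and 3 separated lower. Tgfb1, the founding ligand, was at 5.16 and 13 CPM in Gpr125-negative and 1.9 and 0.71 CPM in nipple-proximal libraries, Bmp6 at 22.2 and 10.6 and 4.51 and 1.42 CPM, and Bmp3, a BMP antagonist, at 2.82 and 30 and 0.0475 and 0.621 CPM. Of 9 receptors 8 lay above 0, with a median of 0.39, and Bmpr1b was separated higher at 1 and 0 against 16 and 17 counts. Of 12 tested members of the CC chemokine list, which does not hold Ccl21a, 2 were separated, both lower. Ccl2, which draws monocytes, was at 36.3 and 104 and 11.1 and 11 CPM, and Ccl7, its neighbour in function, at 28.3 and 90.2 and 8.35 and 3.6 CPM. Of the atypical chemokine receptors, which take up chemokines without G protein signalling, Ackr1 and Ackr3 were separated lower, Ackr3 at 37.7 and 32.7 and 9.54 and 10.1 CPM, and Ackr2 was higher, at 0 and 0 against 72 and 11 counts.

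Other secreted and surface families had a few separated members each. Igfbp5, an IGF-binding protein of involution, was lower, at 27.5 and 20.7 CPM against 8.88 and 9.86 CPM, opposite to Igfbp2. Mmp3, the matrix protease stromelysin, was at 129.5 and 207 and 40.7 and 48.3 CPM, and with Plat it made up the separated lower genes of 23 tested matrix proteases. Mmp10, a second stromelysin, was the 1 separated higher, at 0 and 0 against 17 and 13 counts. Serpinb1a, an inhibitor of neutrophil elastase (chr13:32842092-32851185, minus strand), had 2 and 0 counts against 1870 and 246. Its pooled ratio was 1821 with a 95% counting interval of 503.6 to 15050, and DESeq2 called it higher (adjusted p = 2.1e-07). Among 17 tested scavenger receptors 12 lay below 0, with a median of -1.09, which was -0.37 without Gpr125-negative replicate 2, -0.66 without nipple-proximal replicate 2, -0.16 with the replicate block and -0.27 at 10 CPM or more in 2 libraries. Stab1, a clearance receptor of endothelium and macrophages, was at 487 and 87.6 and 16.3 and 0.799 CPM, and Cd36, a fatty acid transporter, at 4.9 and 225 and 2.33 and 1.24 CPM. Stab1 was highest in Gpr125-negative replicate 1 and Cd36 in replicate 2. Adgrf4, an adhesion receptor like Gpr125, was separated lower, at 22.1 and 16 and 1.42 and 1.86 CPM.

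Regulators and developmental pathways had medians near that of all genes. The Wnt pathway had a median of 0.18 over 37 tested genes (-0.48 without nipple-proximal replicate 2), with 1 separated higher and 2 lower, and the Notch pathway a median of -0.42 over 11 (0.02 without Gpr125-negative replicate 1), with none separated. Nkd1, a feedback inhibitor of Wnt signalling, was at 8.64 and 4.42 CPM in Gpr125-negative and 19 and 26.2 CPM in nipple-proximal libraries. Ror2, a receptor of Wnt5a, was at 4.56 and 8.31 and 2.04 and 0.932 CPM. Of the 39 Hox genes 7 were tested, and 3 were separated lower and 2 higher. Hoxa7 was lower, at 363 and 81 counts against 3 and 8, as were Hoxb6 and Hoxd8, while Hoxb9 was among the higher. All 4 named were at low level. Of 13 tested imprinted genes 3 were separated higher (Plagl1, Peg3 and Ndn) and 2 lower. Both lower genes, Peg10 and Sgce, are neighbours on chromosome 6 (chr6:4747306-4760517 and chr6:4674350-4747207), with Peg10 at 59 and 92 counts against 0 and 0 and Sgce at 13 and 334 counts against 1 and 0. Peg10 was at least 16.3-fold lower when each nipple-proximal library is set at 3 counts.

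Proliferation genes had a higher median in mitosis than in S phase, with few members separated. Of 19 tested mitosis genes 15 lay above 0, with a median of 0.98, 2 separated higher and 1 lower, and of 16 S phase genes 8 did, with a median of 0.00, 1 separated higher and 1 lower. Separated shares were 10.5% and 5.26% for mitosis and 6.25% each way for S phase, against 6.05% and 3.38% of all tested genes. No member had an edgeR p under 0.05 before adjustment or a DESeq2 call. Summed mitosis levels overlapped between groups, at 53.7 and 32.9 and 71.2 and 49.1 CPM. Over all 35 proliferation genes the median was 0.44, which became 1.28 without Gpr125-negative replicate 1 and -0.09 at 10 CPM or more in 2 libraries. Top2a, the topoisomerase of dividing cells, had 7 and 9 counts against 89 and 72, and Mcm5, a replication helicase subunit, was at 4.69 and 1.26 and 14.3 and 15 CPM. Tyms, thymidylate synthase, was at 20.9 and 16.3 and 7.17 and 5.82 CPM. The 85 tested cytosolic ribosomal protein genes had a median of -0.17, none was separated and 22 lay above 0. Antigen presentation and interferon genes had a median of 0.02 over 29 genes.

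A set of genes was found in both libraries of one group and in neither of the other. Of 15812 genes tested, 956 were separated higher, and 226 of these had no counts in either Gpr125-negative library. Of the 535 separated lower, 27 had none in either nipple-proximal library. Such genes passed the expression filter only through the group that held them. The following were picked after their values were seen, as the most abundant named genes. Ubd, a ubiquitin-like modifier, had 680 and 58 counts in nipple-proximal replicates 1 and 2, at least 205-fold higher. Ehd3, a membrane traffic ATPase, had 332 and 119 counts, at least 124-fold. Diras2, a small GTPase, had 140 and 209, at least 93.8-fold. Scn7a, a sodium channel of glia and smooth muscle, had 36 and 514, at least 145-fold, with most of the signal in replicate 2. In the other direction Gap43, a growth-cone protein of neurons and Schwann cells, had 149 and 202 counts in the Gpr125-negative libraries, at least 37.3-fold lower in nipple-proximal cells. Each bound sets the absent group at 3 counts in each library. DESeq2 called all 5 genes from the same counts by which they were picked, so the calls add no separate support.

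**Figure D5:**
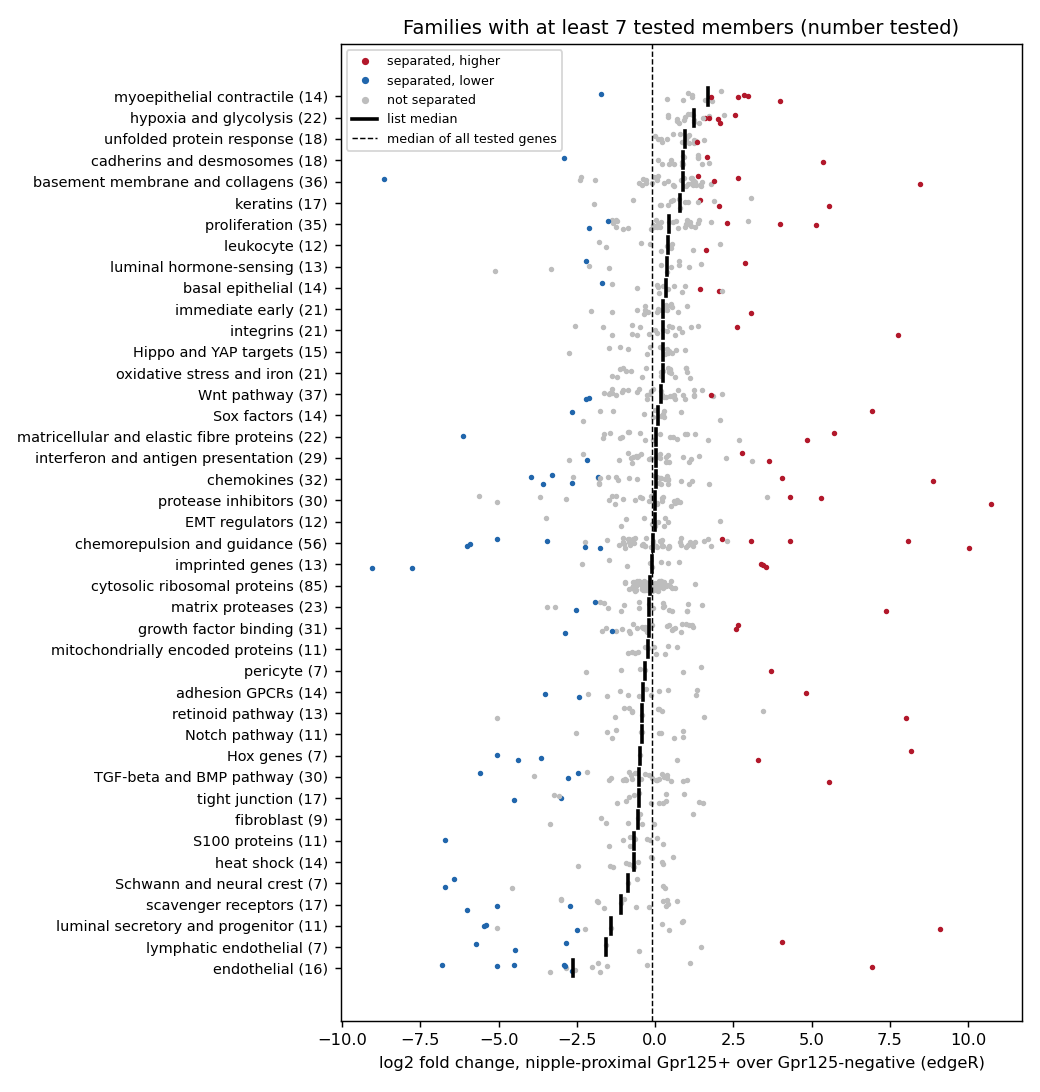
Log2 fold changes of nipple-proximal Gpr125+ over Gpr125-negative cells for the tested members of each family with at least 7 of them, 1 point per gene, with the list median as a bar and the median of all tested genes (-0.09) as a dashed line. Myoepithelial contractile (1.69) and hypoxia and glycolysis (1.24) genes lie highest and endothelial genes (-2.62) lowest, and red and blue points mark separated members.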

How the data were processed

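RNA of sorted mammary cells was amplified with the SMART-Seq HT kit, which uses no molecular identifiers. The authors aligned reads to mm10 with STAR and counted them per gene with HTSeq without regard to strand, and the deposited read counts are raw. The STAR version differs between the study's methods and the submitters' processing notes (2.7.3 in the notes), and the annotation release is not given in the sources used here. Samples were grouped by title. Counts were tested in R 4.3.3 with edgeR 4.0.16 (TMM, filterByExpr, robust glmQLFit, glmQLFTest) on the 4 libraries compared, with no covariate. DESeq2 1.42.0, other filters and scalings, a replicate block and leaving out each library were alternatives. Log2 CPM used a prior count of 2. The floor of 3 counts was 0.0645 to 0.142 CPM, for counting error only. Of the symbols 96.2% were found in GENCODE M21 (GRCm38). The scripts were tested on simulated data. Named genes were the sort antigens, the 15 separated genes with the smallest p in each direction at 20 CPM or more, leaving out predicted genes and pseudogenes, and separated, called or abundant list members. Members and lists were chosen with earlier results of these data known, and lists are described by counts and medians without a set test. Some list members are not reported here.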

Additional observations from a re-analysis of the deposited data

How the results depend on the processing

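The count of calls depended on the setting. Against 0 higher and 0 lower genes with edgeR on the 4 libraries, a filter of at least 1 count gave 16 and 63, DESeq2 on the 4 libraries 168 and 149, DESeq2 on all 6 libraries 193 and 128, and an unadjusted p under 0.05 gave 453 and 175. Leaving out each library gave 0 to 3023 higher and 0 to 1709 lower. Separated genes numbered 956 higher and 535 lower at a 2-fold gap, 2836 and 2032 with no gap, 534 and 182 at a gap of 2 on the log2 scale, 1493 higher with at least 1 count, and 134 and 181 with at least 10 CPM in 2 libraries. Leaving out each library gave 1507 to 4862 and 937 to 3626, since fewer libraries have to agree. With the replicate number as a replicate block the calls stayed at 0 and 0. The labels do not say that a number marks a shared batch. Deviations of same-numbered libraries correlated at 0.227 over only 2 pairs, and a shared batch was not tested. The median of the luminal secretory and progenitor list reversed to 0.36 with at least 10 CPM in 2 libraries, and that of the growth factor binding list reversed to 0.45 with the replicate block, 0.33 without Gpr125-negative replicate 1 and 0.35 without Gpr125-negative replicate 2 (-0.40 to 0.35 over the libraries left out). Of the 47 list medians 18 kept their sign in every edgeR setting, and those that turned include heat shock, tight junction and the TGF-β and BMP pathway (0.03 without Gpr125-negative replicate 2). Of 146 genes followed, 136 kept their direction in every alternative. Many of them were named for being separated, and every separated gene kept its sign in each edgeR setting where it was tested. The count was thus partly fixed by that choice. Leaving out each library, log2 fold changes ranged from -0.37 to 1.88 for Flt1, -0.55 to 4.60 for Bnip3, -0.37 to 2.17 for P4ha1, -3.39 to 0.76 for Hspa1a, -2.28 to 1.81 for Hspa1b, -1.34 to 4.33 for Hspa5 (-0.79 without Gpr125-negative replicate 1), -0.21 to 1.65 for Krt5, -0.34 to 1.92 for Tpm1, -2.12 to 0.56 for Trp63 and -0.40 to 2.97 for Cald1. The cause was not tested. Depth was at least 20134890 counts a library, and the floor of 3 counts limits what can be said of genes with few counts.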

Other observations

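Actg1 and Cnn2, which are outside the contractile list and were picked after their values were seen, were also higher in nipple-proximal Gpr125+ cells. Actg1, cytoplasmic γ-actin, was at 375 and 449 CPM in Gpr125-negative and 1702 and 1509.7 CPM in nipple-proximal libraries, with a log2 fold change of 1.96 ± 0.63 (SE). Cnn2, a calponin of non-muscle cells, was at 107 and 88.2 CPM against 332 and 389.8 CPM, with a log2 fold change of 1.88 ± 0.58 (SE). Both were separated, and neither was called by edgeR or by DESeq2 (adjusted p = 0.47 for Actg1 and 0.53 for Cnn2). Counts of the pigment cell genes Dct and Pmel came almost wholly from Gpr125-negative replicate 2. Dct, a melanin synthesis enzyme, had 1, 4019, 0 and 0 counts in the 4 libraries in the order Gpr125-negative 1 and 2 and nipple-proximal 1 and 2, and Pmel, the melanosome fibril protein, had 0, 880, 3 and 20.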
